A study of Mus musculus with 2 samples.

Results

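Lpl, Gpihbp1, Cd36, Fabp4 and Fabp5 are 5 genes that carry fatty acids from blood lipoproteins across the capillary wall. They were taken by symbol from the count tables, where 5 of 32285 genes carry these names, each in 1 row. They had been chosen with earlier results of these libraries in view, so the levels below are a description. The study compared 2 droplet libraries of mouse kidney cells, with 10 kidneys from 5 mice (male, strain C57BL6/J, 10 to 12 weeks old) pooled in each. The first library came from mice given cisplatin, a chemotherapy drug toxic to the kidney, at 20 mg/kg, and the second from mice given saline, both collected after 72 h. Kidney digests had been enriched with magnetic beads against CD31, an endothelial surface protein, and then against podoplanin, which lymphatic endothelial cells carry. The submitters label the cells as lymphatic endothelial, but of 7 lymphatic markers the endothelial barcodes held 121 UMIs (unique molecular identifiers, 1 per captured transcript) in the cisplatin library and 41 in the saline library. The genes are therefore described here in barcodes gated on general endothelial genes.

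In blood vessels, lipoprotein lipase (the product of Lpl) splits triglycerides of circulating lipoproteins into fatty acids. It is made mainly by cells outside the endothelium, such as fat and muscle cells, and GPIHBP1 on capillary endothelial cells binds it and carries it to the vessel lumen. CD36 on the cell surface takes up the released fatty acids, and the binding proteins FABP4 and FABP5 hold them inside the cell. Fabp4, Gpihbp1 and Cd36 are widely used as markers of capillary rather than arterial endothelium.

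In the GENCODE M21 annotation of GRCm38, Lpl lies on the plus strand at chr8:68880491-68907448 and Gpihbp1 on the plus strand at chr15:75596628-75599481. Cd36 lies on the minus strand at chr5:17781690-17888801. Fabp5 (chr3:10012548-10016607, plus strand) and Fabp4 (chr3:10204088-10208576, minus strand) lie near each other on chromosome 3. All 5 are protein-coding, and no gene of the files overlaps any of them. Fabp4 and Fabp5 shared no run of 60 bases with each other, so reads of the 2 relatives could be told apart. Fabp5 shared such runs with 4 gene models that are not in the files, and Lpl shared at most 28 of them with any 1 of 67 other genes of the files.

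The cisplatin library held 19994105 UMIs and the saline library 5879496. Barcodes with at least 500 UMIs and at most 20% mitochondrial UMIs numbered 1729 and 627, and 609 (35.2%) and 497 (79.3%) of them had a UMI of Pecam1, Cdh5, Egfl7 or Flt1 and were called endothelial. By the list with the most UMIs, 145 cisplatin and 185 saline endothelial barcodes were capillary (Plvap, Igfbp3, Npr3, Inhbb, Esm1, Aplnr), 67 and 39 glomerular (Ehd3, Sost, Tbx3, Gata5, Pi16) and 79 and 178 arterial (Gja4, Gja5, Sox17 and 6 others). The other 318 cisplatin and 95 saline endothelial barcodes had no UMI of these lists or a tie. No kept barcode was shared between the libraries. Median depth was 915 UMIs in cisplatin endothelial barcodes and 1020 in saline ones. A proximal tubule marker UMI was present in 92.4% of cisplatin and 49.5% of saline endothelial barcodes, and mitochondrial UMIs made up 8.16% and 2.3% of their total. There was 1 library per treatment, so no test was possible, and every interval below is a 95% interval that covers counting error only.

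The 5 genes did not share 1 pattern over the classes. Gpihbp1, Fabp4 and Fabp5 were highest in the capillary gate among all classes of at least 20 barcodes, in both libraries. Cd36 was highest in the capillary gate in the saline library and second to macrophages in the cisplatin library. CPM here are UMIs of a gene, scaled to the total UMIs of the class. Lpl was not a capillary transcript here: its highest level was in the glomerular gate of the cisplatin library and in near-empty droplets (barcodes of 1 to 100 UMIs, which hold mostly free RNA) of the saline library.

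**Figure D1:**
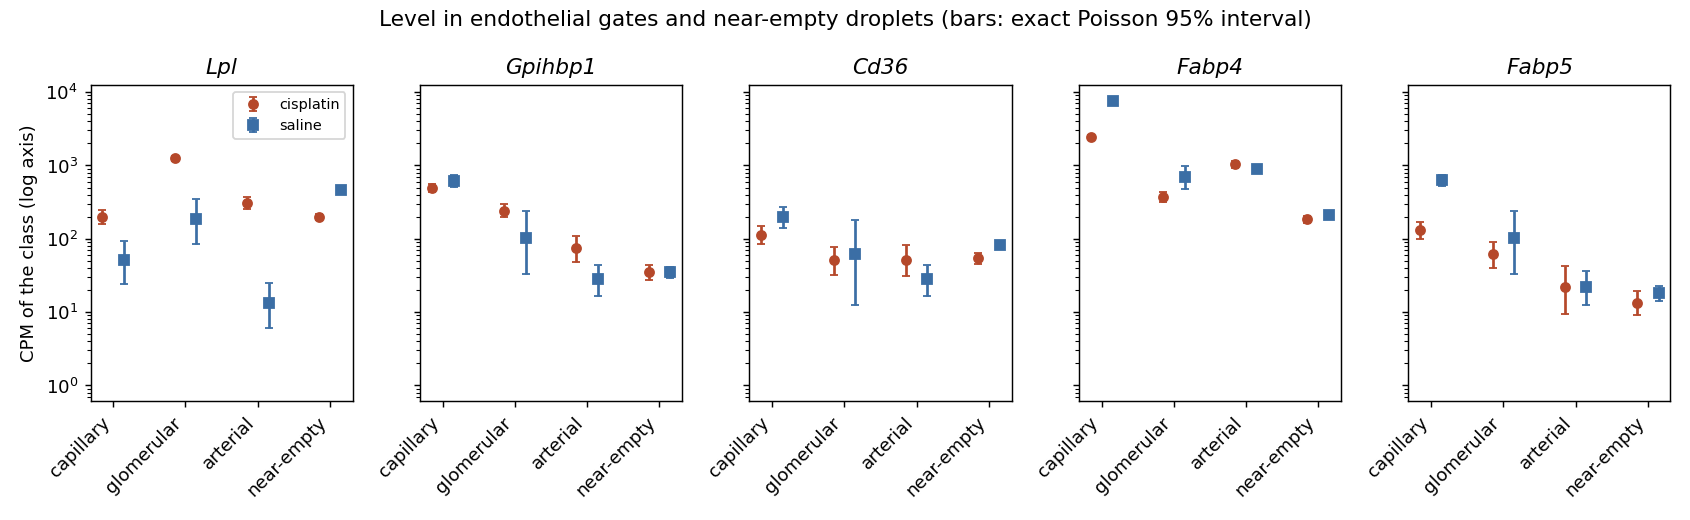
Level of each gene in CPM (log axis) in the capillary, glomerular and arterial gates and in near-empty droplets, in the cisplatin (circles) and saline (squares) libraries; bars are exact Poisson 95% intervals. Fabp4 in the capillary gate stands at 2421 CPM in cisplatin and 7586 CPM in saline, and Lpl in the glomerular gate at 1253 and 184 CPM.

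Across all endothelial barcodes, Lpl was higher in the cisplatin library, Fabp4 and Fabp5 were lower, and Gpihbp1 and Cd36 lay within 2-fold. A gene was called at a ratio of CPM of at least 2 or at most 0.5 with at least 20 UMIs over both libraries. By this rule 1 of the 5 genes was higher, where 18.8% of 10501 genes measured were, and 2 were lower, where 5.92% were. The median log2 ratio of all these genes was 0.13. The genes were chosen from this comparison, so nothing is read from these shares. In the capillary gate the same 3 genes were called, 1 higher (12.5% of 5437 genes were higher) and 2 lower (8.06%). In the glomerular gate 2 were higher (23.9% of 4505 genes) and none lower (9.59%), and in the arterial gate 2 were higher (10.4% of 6955 genes) and none lower (8.91%).

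**Figure D2:**
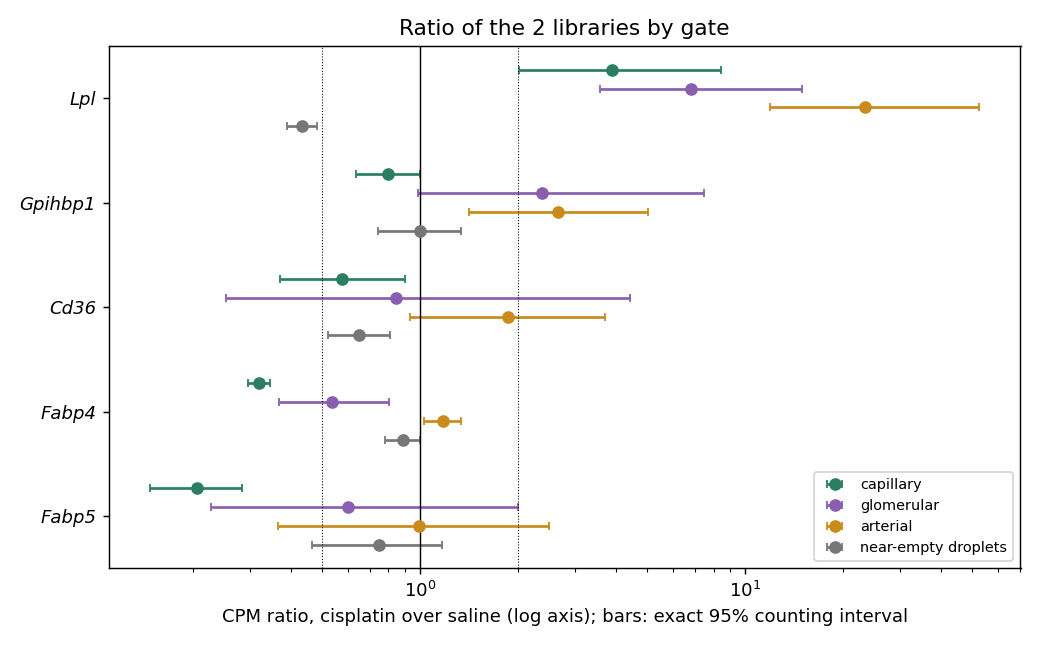
Ratio of CPM, cisplatin over saline (log axis), of each gene in the 3 gates and in near-empty droplets; bars are exact 95% counting intervals and dotted lines mark 0.5 and 2. Lpl lies above 2 in each gate and at 0.433 in near-empty droplets, and Fabp4 and Fabp5 lie at 0.319 and 0.206 in the capillary gate.

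Lpl encodes the lipase itself. In endothelial barcodes it had 825 UMIs (489 CPM, 456 to 524) in the cisplatin library, against 36 UMIs (35.6 CPM, 24.9 to 49.3) in the saline library, a ratio of 13.7 (9.85 to 19.8). Most of the cisplatin UMIs, 532, lay in the glomerular gate. Glomerular Lpl stood at 1253 CPM (1149 to 1364) in the cisplatin library and 184 CPM (84 to 349) in the saline library, a ratio of 6.82 (3.57 to 15). The saline value rests on 9 UMIs in 7 barcodes. The ratio was 3.57 (1.3 to 13.7) in barcodes with at least 2 glomerular UMIs and none of the other gates, and 3.22 as a mean over barcodes. It was 19.8 with free RNA subtracted, a value without an interval, since an estimated 5.99 of the 9 saline UMIs were then taken away.

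The arterial gate had the widest ratio for Lpl and few counts behind it. Arterial Lpl was 310 CPM (255 to 372) in the cisplatin library and 13.3 CPM (6.06 to 25.2) in the saline library, a ratio of 23.4 (11.9 to 52.4). In the capillary gate it was 198 CPM (159 to 245) and 50.8 CPM (24.4 to 93.4), a ratio of 3.9 (2.02 to 8.43). One barcode held 47 of the 87 capillary Lpl UMIs of the cisplatin library. Without the richest barcode of each library the capillary ratio was 2.38, and without barcodes that held a podocyte UMI it was 1.37, short of the 2-fold call. The arterial ratio ranged from 8.56 to 33 under the alternatives tried. Markers of other cell types were also higher in cisplatin arterial barcodes: proximal tubule markers stood at 1829 CPM in the cisplatin library and 278 CPM in the saline library, those of distal tubule and collecting duct at 2489 and 85.4 CPM, and those of mural cells and fibroblasts at 1807 and 57.4 CPM. Podocyte markers stood at 365 and 177 CPM there. Their part in the arterial ratio was not tested.

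Lpl was also abundant outside the endothelial barcodes. Proximal tubule barcodes held it at 393 CPM (348 to 443) in the cisplatin library and 212 CPM (113 to 362) in the saline library. Near-empty droplets held it at 200 CPM (181 to 220) and 461 CPM (440 to 484), a ratio of 0.433 (0.389 to 0.482), the opposite direction to the gates. Within the cisplatin library the glomerular level was 6.27 times that of near-empty droplets (5.51 to 7.14), the arterial level 1.55 times (1.25 to 1.91) and the capillary level 0.992 times (0.778 to 1.25). Proximal tubule barcodes of that library stood at 1.97 times (1.68 to 2.3). Within the saline library the same 3 gates stood at 0.398, 0.0287 and 0.11 times the near-empty level, and proximal tubule barcodes at 0.459 times.

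Markers of podocytes, of mural cells and fibroblasts, and of distal tubule and collecting duct were higher together with Lpl in cisplatin glomerular barcodes. Podocyte markers, from 8 genes, summed to 817 UMIs (1925 CPM) in 20 glomerular barcodes of the cisplatin library, against 6 UMIs (123 CPM) in 6 barcodes of the saline library. Cisplatin glomerular barcodes with a podocyte UMI had 1280 CPM of Lpl (1161 to 1409), and the 47 without one had 1161 CPM (956 to 1398). The 33 saline glomerular barcodes without one had 258 CPM (118 to 490), so the ratio was 4.5 (2.29 to 10.1) without podocyte UMIs. The 7 podocyte barcodes of the cisplatin library held 7 Lpl UMIs, or 1231 CPM (495 to 2536). Adipocyte markers, from 5 genes, were at 0 UMIs in all 3 gates of both libraries. Mural and fibroblast markers, from 11 genes, stood at 1034 CPM in cisplatin and 61.3 CPM in saline glomerular barcodes, with 439 and 3 UMIs. Distal tubule and collecting duct markers, from 12 genes, stood at 2276 and 858 CPM. Proximal tubule markers, from 14 genes, went the other way, at 1298 CPM in the cisplatin glomerular gate and 2144 CPM in the saline one, while at least 1 such UMI was present in 88.1% and 64.1% of its barcodes. Leaving out barcodes with at least 2 proximal tubule UMIs kept 14 cisplatin and 23 saline glomerular barcodes, with 5 and 6 Lpl UMIs. The ratio there was 1.08 (0.261 to 4.25). The same step brought capillary Lpl to 0.491, on 1 and 4 UMIs, and endothelial Lpl to 6.01. The part of podocyte, mural and tubule RNA in the Lpl ratios was not tested.

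Depth separated the barcodes that held Lpl. In the cisplatin glomerular gate 3 barcodes held 55.5% of the Lpl UMIs, the richest of them 151, and the 33 positive barcodes had a median of 4. Median depth of this gate was 2072 UMIs in the cisplatin library and 962 in the saline library. A Lpl UMI was seen in 49.3% of cisplatin (36.8 to 61.8) and 17.9% of saline (7.54 to 33.5) glomerular barcodes at full depth. After thinning each barcode to 500 UMIs the shares were 20.9% (11.9 to 32.6) and 15.4% (5.86 to 30.5). The ratio of levels was then 1.94, short of the 2-fold call, with an interval, 0.752 to 5.9, that includes 1. The thinned capillary shares of Lpl were 4.14% (1.53 to 8.79) and 1.62% (0.336 to 4.67), and the arterial ones 16.5% (9.06 to 26.5) and 2.81% (0.918 to 6.43). Proximal tubule barcodes had 15% (12.7 to 17.6) and 10.2% (4.78 to 18.5) after thinning, at median full depths of 680 and 649.5 UMIs. They serve below as the class set beside the capillary gate for the other 4 genes. Their Lpl level in the cisplatin library was above that of near-empty droplets, so their share is not a background for Lpl.

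**Figure D3:**
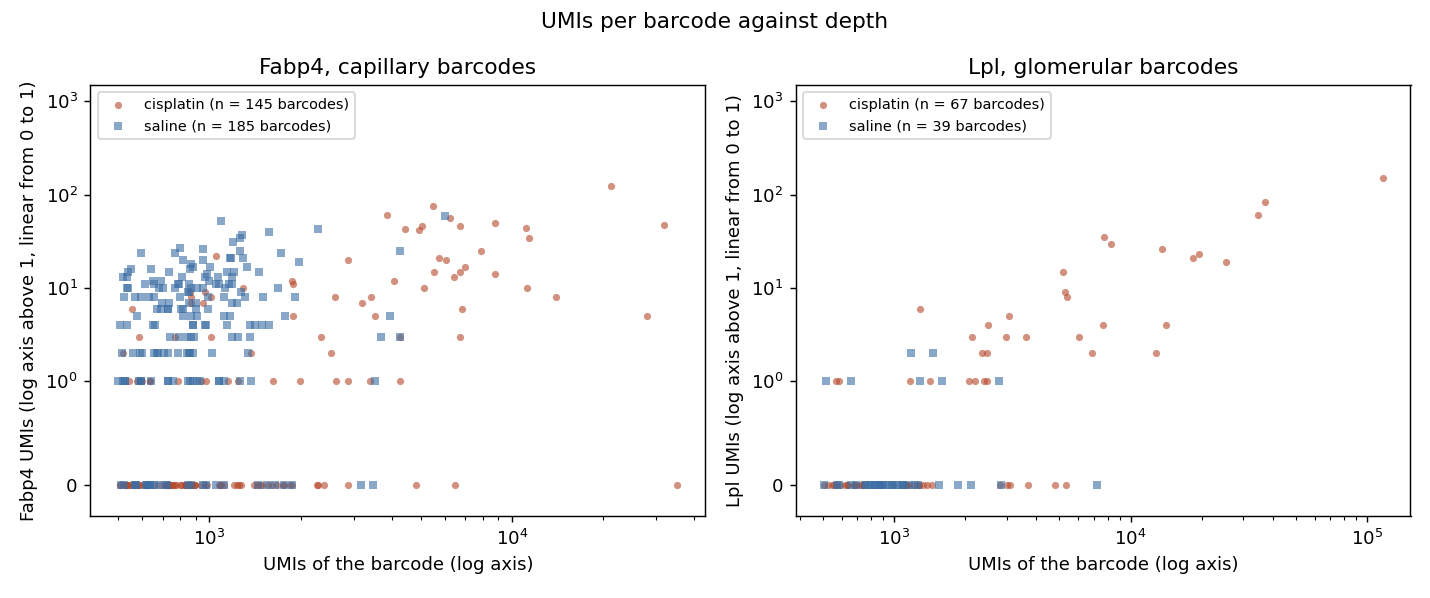
UMIs of Fabp4 in each capillary barcode (left) and of Lpl in each glomerular barcode (right), against the barcode's total UMIs (log axis); the vertical axis is logarithmic above 1 and linear from 0 to 1. Saline capillary barcodes hold Fabp4 at shallow depth, whereas many shallow cisplatin ones are at 0, and the richest Lpl barcode, with 151 UMIs, is the deepest glomerular barcode.

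Gpihbp1 encodes the capillary receptor of the lipase. It was a capillary transcript in both libraries, and the size of its capillary difference between them depended on how barcodes were chosen and weighted. Capillary Gpihbp1 had 217 UMIs (495 CPM, 431 to 565) in the cisplatin library, against 122 UMIs (620 CPM, 515 to 740) in the saline library, a ratio of 0.798 (0.636 to 1). The ratio was 0.619 after thinning (0.392 to 0.957), 0.616 without barcodes that held a podocyte UMI (0.464 to 0.817), 0.547 with at least 2 capillary UMIs and none of the other gates (0.333 to 0.885) and 0.567 as a mean over barcodes, and 1.04 in barcodes of at least 1000 UMIs (0.766 to 1.42). Capillary over arterial levels stood at 6.68 (4.47 to 10.4) in the cisplatin library and 22.2 (13.6 to 38.1) in the saline library. Capillary over near-empty levels stood at 14.1 (10.8 to 18.6) and 17.7 (13.7 to 22.8).

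Cisplatin glomerular barcodes also held Gpihbp1, at 6.93 times the near-empty level (5.09 to 9.45). At full depth 32.8% of them (21.8 to 45.4) had a UMI. After thinning it was 5.97% (1.65 to 14.6) of cisplatin and 2.56% (0.0649 to 13.5) of saline glomerular barcodes. In the cisplatin gate 3 barcodes held 59.2% of the Gpihbp1 UMIs, the richest of them 39. Glomerular barcodes had 103 UMIs (243 CPM, 198 to 294) in the cisplatin library and 5 UMIs (102 CPM, 33.1 to 238) in the saline library, a ratio of 2.38 whose interval, 0.986 to 7.48, includes 1 and which was 1.07 as a mean over barcodes. Arterial barcodes had 27 UMIs (74 CPM, 48.8 to 108) in the cisplatin library and 19 UMIs (28 CPM, 16.8 to 43.7) in the saline library, a ratio of 2.65 (1.42 to 5.04). Of the 27 arterial UMIs, 24 lay in 3 of the 5 positive barcodes. The arterial direction turned to 0.676 after thinning, on 3 and 10 UMIs. The 14 cisplatin arterial barcodes with fewer than 2 proximal tubule UMIs held none, against 14 UMIs in 152 such saline barcodes. In proximal tubule barcodes and near-empty droplets of the cisplatin library the level was 27.5 and 35 CPM.

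The share of capillary barcodes with a Gpihbp1 UMI was lower in the cisplatin library. It was 29% (21.7 to 37.1) in cisplatin and 38.9% (31.9 to 46.3) in saline barcodes at full depth, with median depths of 1083 and 868 UMIs. After thinning it was 12.4% (7.53 to 18.9) and 26.5% (20.3 to 33.5), against 1.51% and 1.14% in proximal tubule barcodes. Positive capillary barcodes had a median of 3.5 UMIs in the cisplatin library and 1 in the saline library.

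Over all endothelial barcodes the ratio of Gpihbp1 was 1.33 (1.1 to 1.62), from 356 and 160 UMIs, and its direction depended on how barcodes were chosen and weighted. It was 2.6 in barcodes of at least 1000 UMIs and 2.02 where UMIs of at least 2 of the 4 endothelial genes were required. It was 0.41 where each barcode counted equally and 0.422 after thinning.

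Cd36 encodes the fatty acid uptake receptor, which macrophages and platelets carry as well as capillary endothelium. In endothelial barcodes it had 109 UMIs in the cisplatin library and 68 in the saline library, a ratio of 0.961 (0.704 to 1.32). Capillary Cd36 had 50 UMIs (114 CPM, 84.6 to 150) in the cisplatin library, against 39 UMIs (198 CPM, 141 to 271) in the saline library, a ratio of 0.575 (0.371 to 0.898) that did not reach the 2-fold call. It passed that limit at 0.487 (0.286 to 0.819) without barcodes that held a podocyte UMI. Without those that held at least 2 proximal tubule UMIs it was 0.173, on 3 and 34 UMIs. It was 0.494 (0.15 to 1.46) with at least 2 capillary UMIs and none of the other gates, and 0.389 as a mean over barcodes. The interval included 1 after thinning, at 0.567 (0.213 to 1.37), and in barcodes of at least 1000 UMIs, at 0.717 (0.414 to 1.29). It also did at 10% mitochondrial UMIs, at 0.637 (0.398 to 1.02), and with 2 of the 4 endothelial genes, at 0.719 (0.452 to 1.16). In the glomerular gate 22 and 3 UMIs gave 51.8 CPM in cisplatin and 61.3 CPM in saline barcodes, and in the arterial gate 19 UMIs in each library gave 52.1 and 28 CPM. The ratios there, 0.846 (0.254 to 4.42) and 1.86 (0.933 to 3.72), have intervals that include 1.

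The free RNA estimate gave 6.64 of the 50 cisplatin and 2.8 of the 39 saline capillary UMIs of Cd36. Near-empty droplets held it at 54.2 CPM in the cisplatin library and 83.4 CPM in the saline library, and the capillary level was 2.1 times (1.48 to 2.95) and 2.38 times (1.66 to 3.32) as high. Glomerular and arterial levels did not exceed it in the cisplatin library, at 0.956 and 0.961 times. The thinned capillary shares were 4.14% (1.53 to 8.79) and 9.19% (5.44 to 14.3), and those of proximal tubule barcodes were 2.91% (1.89 to 4.26) and 5.68% (1.87 to 12.8). The 2 intervals overlapped in both libraries, so at this depth the capillary share was not set apart from that of proximal tubule barcodes. At full depth the capillary shares were 13.8% and 15.7%. Macrophage barcodes of the cisplatin library had the highest level, 257 CPM (191 to 339), from 50 UMIs in 12 of 59 barcodes. The saline library had 2 macrophage barcodes with no Cd36 UMI.

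**Figure D4:**
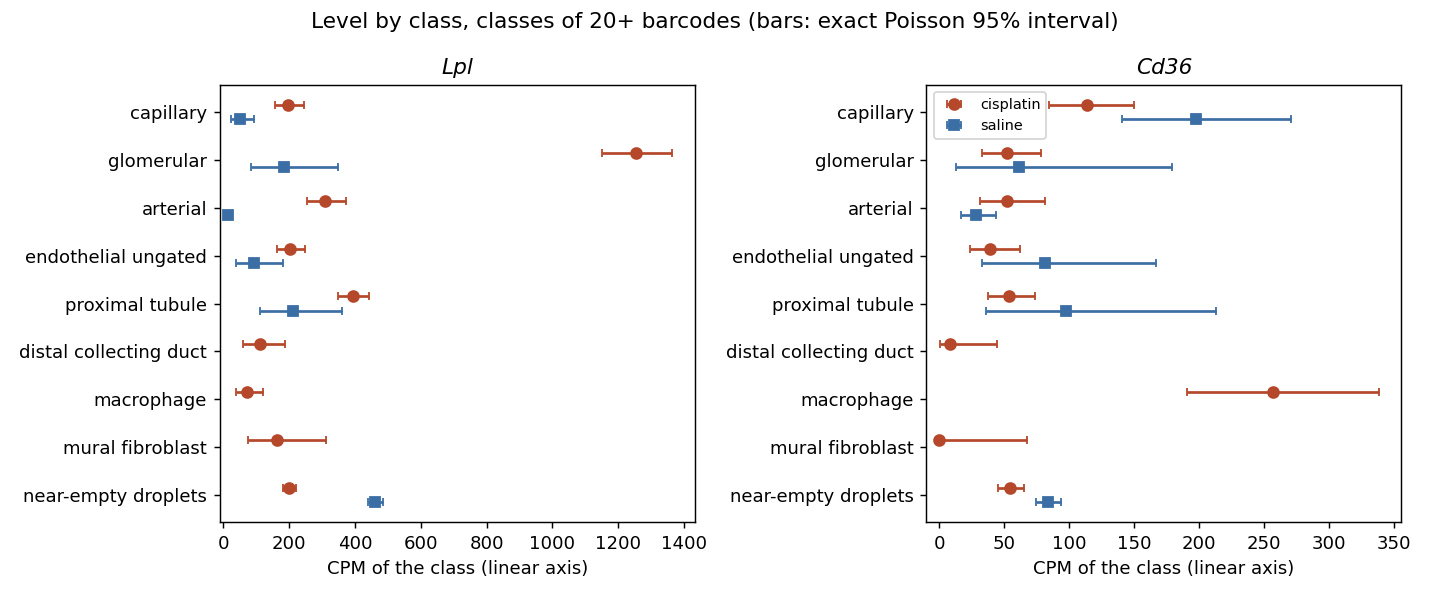
Level of Lpl (left) and Cd36 (right) in CPM (linear axis) in each class of at least 20 barcodes and in near-empty droplets, in the cisplatin (circles) and saline (squares) libraries; bars are exact Poisson 95% intervals. Lpl stands highest in cisplatin glomerular barcodes (1253 CPM) and in saline near-empty droplets (461 CPM), and Cd36 in cisplatin macrophage barcodes (257 CPM) and saline capillary barcodes (198 CPM).

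Fabp4 encodes the binding protein that marks capillary endothelium and fat cells. Its capillary level was lower in the cisplatin library and remained the highest of all classes there. Capillary Fabp4 had 1062 UMIs (2421 CPM, 2277 to 2571) in the cisplatin library, against 1493 UMIs (7586 CPM, 7206 to 7981) in the saline library, a ratio of 0.319 (0.295 to 0.345). It ranged from 0.216 after thinning to 0.535 without barcodes that held at least 2 proximal tubule UMIs, and that last value falls short of the 2-fold call.

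Fabp4 was found in a smaller share of capillary barcodes of the cisplatin library. At full depth 47.6% of cisplatin (39.2 to 56) and 85.4% of saline (79.5 to 90.2) capillary barcodes had a UMI. After thinning the shares were 33.1% (25.5 to 41.4) and 77.8% (71.2 to 83.6), against 4.77% and 3.41% in proximal tubule barcodes. Positive capillary barcodes had a median of 8 UMIs in the cisplatin library and 7 in the saline library at full depth, where the gates' median depths were 1083 and 868 UMIs. After thinning, 48 positive cisplatin barcodes held 130 UMIs and 144 positive saline barcodes held 769. The richest 9 cisplatin barcodes held 50% of the capillary Fabp4 UMIs, against 30 saline barcodes. Capillary barcodes of the 2 libraries also differed in other RNA. A proximal tubule marker UMI was present in 88.3% of cisplatin and 41.1% of saline ones. Distal tubule and collecting duct markers stood at 1122 and 391 CPM, and mural and fibroblast markers at 440 and 102 CPM. Podocyte markers stood at 219 and 234 CPM. Estimated free RNA was 27.9% and 17.1%, and mitochondrial UMIs were 7.33% and 1.68%. Their part in the capillary ratios and shares was not tested.

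The other gates differed less. Glomerular Fabp4 was 372 CPM (316 to 435) in the cisplatin library and 694 CPM (481 to 970) in the saline library, a ratio of 0.536 (0.368 to 0.801). It was 2.61 in the 13 cisplatin and 10 saline barcodes with at least 2 glomerular UMIs and none of the other gates. That value rests on 23 and 3 UMIs, and its interval, 0.788 to 13.6, includes 1. Arterial Fabp4 was 1039 CPM (937 to 1149) and 882 CPM (813 to 955), a ratio of 1.18 (1.03 to 1.34). Of the 379 arterial UMIs in the cisplatin library, 232 lay in 3 barcodes, and the direction turned to 0.456 after thinning and to 0.711 without barcodes that held a podocyte UMI. The capillary level was 2.33 times the arterial one (2.07 to 2.63) in the cisplatin library and 8.6 times (7.82 to 9.47) in the saline library.

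Over all endothelial barcodes Fabp4 had 1699 UMIs (1008 CPM, 960 to 1057) in the cisplatin library, against 2388 UMIs (2362 CPM, 2268 to 2458) in the saline library, a ratio of 0.427 (0.401 to 0.454). The 2-fold call was lost in barcodes of at least 1000 UMIs, at 0.667, in those with at least 2 of the 4 endothelial genes, at 0.611, at a limit of 10% mitochondrial UMIs, at 0.526, and without barcodes with at least 2 proximal tubule UMIs, at 0.807. The endothelial barcodes outside the gates differed most: Fabp4 stood at 218 CPM (178 to 265) in 318 cisplatin barcodes and at 3041 CPM (2684 to 3433) in 95 saline barcodes. These sets were unlike: 287 cisplatin and 59 saline barcodes had no gate UMI, and 31 and 36 had a tie. Their estimated share of free RNA was 64.7% and 41.1%, and 1 barcode held 44 of the 100 cisplatin Fabp4 UMIs. The estimated share of free RNA in all endothelial barcodes was 35% in the cisplatin library and 10.4% in the saline library. Its subtraction left the capillary ratio of Fabp4 at 0.314.

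Fabp5 encodes a second fatty acid binding protein, known from skin and from capillary endothelium. It followed Fabp4 with fewer counts. Capillary Fabp5 had 57 UMIs (130 CPM, 98.4 to 168) in the cisplatin library, against 124 UMIs (630 CPM, 524 to 751) in the saline library, a ratio of 0.206 (0.148 to 0.284) that stayed between 0.133 and 0.33 under each alternative tried. The share of capillary barcodes with a UMI was 14.5% (9.19 to 21.3) and 31.9% (25.2 to 39.1) at full depth, and 4.83% (1.96 to 9.69) and 21.1% (15.4 to 27.7) after thinning. Proximal tubule barcodes had 0.465% in the cisplatin library after thinning and 0 of 88 in the saline library, which allows a share of up to 3.41% when 3 counts are taken as the limit of a count of 0 (4.11% by the Clopper-Pearson interval).

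In the glomerular gate Fabp5 had 26 UMIs (61.3 CPM, 40 to 89.7) in cisplatin and 5 UMIs (102 CPM, 33.1 to 238) in saline barcodes, a ratio of 0.6 (0.227 to 2). In the arterial gate 8 and 15 UMIs gave 21.9 and 22.1 CPM, a ratio of 0.993 (0.365 to 2.5). Neither difference was detectable at this depth. Over all endothelial barcodes the ratio was 0.334 (0.256 to 0.434), from 92 and 165 UMIs. It passed out of the 2-fold call in barcodes of at least 1000 UMIs, at 0.666, without barcodes with at least 2 proximal tubule UMIs, at 0.554, and with at least 2 of the 4 endothelial genes, at 0.502. Capillary over arterial levels were 5.92 (2.81 to 14.4) in the cisplatin library and 28.5 (16.6 to 52.5) in the saline library.

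Most capillary barcodes with Fabp5, Gpihbp1 or Cd36 also held Fabp4, the gene found in the most capillary barcodes, whereas those with Lpl held it less often. A Fabp4 UMI was present in 19 of 21 cisplatin and all 59 saline capillary barcodes with Fabp5. It was present in 37 of 42 cisplatin and 69 of 72 saline capillary barcodes with Gpihbp1, and in 14 of 20 and 28 of 29 of those with Cd36. Of the capillary barcodes with Lpl, 9 of 28 in the cisplatin library and 5 of 9 in the saline library also had Fabp4, against 47.6% and 85.4% of all capillary barcodes. In the cisplatin library 28.6% of those with Lpl had Gpihbp1 and 17.9% had Cd36, against 29% and 13.8% of all. In the saline library 2 of the 9 had Gpihbp1 and none had Cd36. Deeper barcodes hold more of every gene, so these counts describe joint detection and are no measure of regulation.

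Barcodes at the edges of the filters were as follows. Endothelial barcodes of 500 to 599 UMIs held Fabp4 at 552 CPM in the cisplatin library and 5608 CPM in the saline library, and those of 400 to 499 UMIs, just outside, at 525 and 3731 CPM. For Lpl the levels were 373 and 145 CPM inside and 180 and 235 CPM outside. They rest on few counts, 23 and 5 UMIs inside and 12 and 7 UMIs outside. At 15 to 20% mitochondrial UMIs the 124 cisplatin barcodes held Lpl at 275 CPM and Fabp4 at 408 CPM, and the 60 barcodes at 20 to 25% held 151 and 644 CPM. The saline library had no endothelial barcode at 15 to 20% and 1 at 20 to 25%.

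The genes with the most similar pattern were sought over 15 sums of class and library, by Pearson correlation of log2(CPM + 10) among 6579 genes. Fabp4 and Fabp5 were in each other's nearest 3, at r = 0.925. Irgm2 (0.926) and Cmpk2 (0.926) were nearest to Fabp4, and the same pair stood at 0.906 and 0.915 for Fabp5. Tbxa2r (0.919), Exoc3l2 (0.915) and Ephb4 (0.906) were nearest to Gpihbp1, and Vsir (0.861), Slfn2 (0.824) and Grk2 (0.822) to Cd36. Lpl had no gene as close, with Fgf1 (0.785), Rhpn1 (0.768) and Polb (0.767) first. These are descriptions, since the points share 2 libraries and their free RNA.

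Around the 5 genes, 58 others of lipid handling in 5 lists were read in endothelial barcodes, and 49 had at least 20 UMIs. Of these 12 were at least 2-fold higher and 10 at least 2-fold lower in the cisplatin library, where 18.8% and 5.92% of all genes were, and their median log2 ratio was 0.03 against 0.13 for all genes. Among 13 measured genes of fatty acid uptake 3 were higher and 4 lower, and among 8 lipoprotein receptors and exporters 2 were higher and 3 lower. Among 7 genes around the lipase 1 was higher and 1 lower, and among 11 regulators 2 were higher and 2 lower. The list of storage and release, with 10 measured genes, had a median of 0.75, with 4 higher and 0 lower. Named after their values were seen, these were Plin2, which coats lipid droplets (2.5), Cpt1a, which brings fatty acids into mitochondria (3), Lpin1 (3) and the triglyceride-forming enzyme Dgat2 (5.4, from 18 and 2 UMIs). In the cisplatin library the endothelial levels of Plin2 (76.5 CPM), Lpin1 (44.5 CPM) and Dgat2 (10.7 CPM) lay below those of near-empty droplets (106, 79.9 and 43.9 CPM), and that of Cpt1a was 71.2 CPM against 65.9 CPM.

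Angptl4, a secreted inhibitor of the lipase, had 75 UMIs in cisplatin and 2 in saline endothelial barcodes, a ratio of 22.5 (6.01 to 189). Near-empty droplets held it at 86.9 and 18.6 CPM, above its endothelial levels of 44.5 and 1.98 CPM. Vldlr, a lipoprotein receptor, had 75 and 8 UMIs, a ratio of 5.62 (2.71 to 13.5), and its endothelial level of 44.5 CPM in the cisplatin library was close to 41.1 CPM in near-empty droplets. Fabp3, the binding protein of heart muscle, had 48 and 0 UMIs, so its ratio has only a lower interval bound, 7.51. Set against a floor of 3 UMIs in the saline library, Fabp3 was 9.6-fold higher. Its near-empty levels were 36.9 and 18.1 CPM, above its endothelial levels of 28.5 and 0 CPM. The Fabp3 gene overlaps Gm10570 and Zcchc17 on the other strand.

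Pltp, Tcf15, Cavin1 and Pcsk5 were lower and had most of their saline UMIs in the arterial gate, which held 79 cisplatin and 178 saline barcodes, so values within gates are given beside the ratio. Pltp, which transfers phospholipids between lipoproteins and overlaps Ctsa, had 88 UMIs in cisplatin and 349 in saline endothelial barcodes, a ratio of 0.151 (0.118 to 0.192), and 0.248 within the arterial gate. Tcf15, which with Meox2 drives Cd36 and Lpl in heart endothelium of mice, had 25 and 90 UMIs, a ratio of 0.167 (0.102 to 0.262), and 0.367 within the capillary gate (0.186 to 0.717). Meox2 had no UMI in the endothelial barcodes of either library. Cavin1, which builds caveolae, had 252 and 465 UMIs, a ratio of 0.325 (0.278 to 0.38) and 0.581 within the arterial gate, and Pcsk5, a protease that cleaves lipases, 75 and 154 UMIs, a ratio of 0.292 (0.219 to 0.387) and 0.392 within the arterial gate. Within the capillary gate Cavin1 stood at 0.643 (0.414 to 1.01) and Pltp at 0.314 (0.171 to 0.567). Pcsk5 pointed the other way there, at 1.64 from 11 and 3 UMIs, with an interval, 0.435 to 9.18, that includes 1. Near-empty droplets of the cisplatin library also held less of these genes than those of the saline library. Levels there were 13.1 and 40.8 CPM for Pltp, 2.34 and 9.99 CPM for Tcf15, 63.5 and 170 CPM for Cavin1, and 34.1 and 67.2 CPM for Pcsk5. The part of free RNA in their ratios was not tested.

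**Figure D5:**
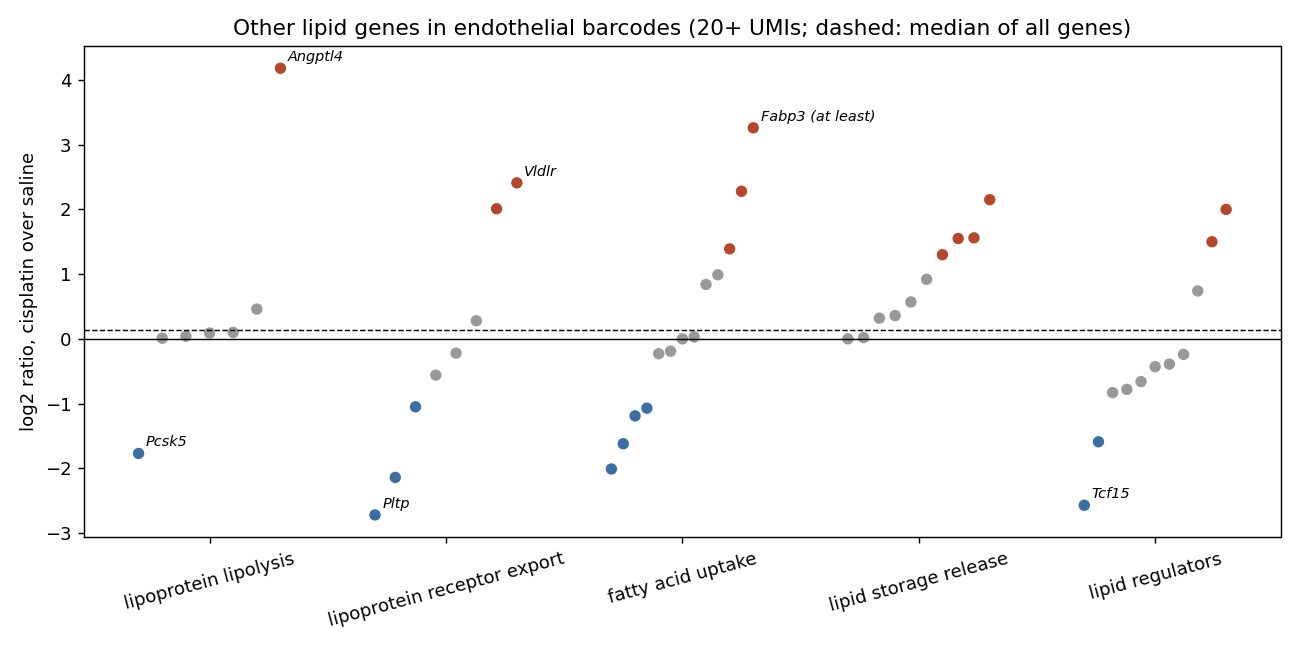
Log2 ratio of CPM, cisplatin over saline, of the 49 measured genes of the 5 lipid lists in endothelial barcodes, 1 point per gene; red points are at least 2-fold higher, blue ones at least 2-fold lower, and the dashed line is the median of all genes, 0.13. Angptl4, Fabp3 (drawn at its ratio to a floor of 3 saline UMIs) and Vldlr stand at the top and Pltp and Tcf15 at the bottom. Names mark the highest or lowest gene of a list where the text gives its values.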

How the data were processed

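Single cells of enriched mouse kidney digests were sequenced with a droplet kit that reads the 3' end of transcripts. The deposited values are whole-number UMI counts, unfiltered and not normalized by the authors. The submitters' processing notes name Cell Ranger 6.0.1 and mm10, whereas a mark of Cell Ranger 4 stands in the matrices, per the file headers. Which of these made the matrices is not stated.

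The members and all gene lists were chosen with earlier results of these data known. UMIs were summed per class and library and divided by all UMIs of the class (CPM). Levels have exact Poisson intervals, ratios exact conditional binomial intervals and shares Clopper-Pearson intervals, at 95%. With 1 library per treatment no test was run. Barcodes without an endothelial UMI took the class with the most marker UMIs, at least 2. Shares are also given after thinning each barcode to 500 UMIs with a fixed seed. The share of free RNA was estimated from 15 proximal tubule genes, as if all their UMIs in endothelial barcodes were free RNA, and its profile from barcodes of 1 to 100 UMIs, 2140605 UMIs in the cisplatin library and 3703779 in the saline library. Over barcodes of 10 UMIs or more the median was 146 in the cisplatin library and 37 in the saline library, so this window holds the shallowest cisplatin droplets. No doublet caller was run, and barcodes with markers of several types were kept, with the alternatives that leave them out.

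From the lipid lists, the rule named the 8 genes farthest from 1 by the interval bound nearest 1, among those called, of which 1 is not reported here. For each member the 3 most correlated genes were named, with markers left out. Of 32285 gene IDs, 32235 were found in GENCODE M21. The call was tested on simulated counts. Alternatives covered barcode filters, gates, scaling, free RNA and depth. Python 3.11.15 was used with numpy 2.4.6, scipy 1.17.1 and pandas 2.3.3.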

Additional observations from a re-analysis of the deposited data

Results flagged for a closer look

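The Fabp4 ratio, cisplatin over saline, pointed in opposite directions in different gates, with intervals that leave out 1: it was 1.18 in arterial barcodes, against 0.319 in capillary and 0.536 in glomerular barcodes. The difference between gates was not tested, since each gate has 1 library per treatment. The arterial value fell below 1 under 5 of the alternatives, for example 0.544 where each barcode counted equally and 0.496 without barcodes with at least 2 proximal tubule UMIs. Arterial median depth was 1108 UMIs in the cisplatin library and 2213 in the saline library, and its estimated share of free RNA was 26.6% and 3.38%. Their part in the difference was not tested.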

How the results depend on the processing

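No paired analysis was possible because each treatment has 1 library, and for the same reason no library could be left out. Of 216 recomputed ratios, 136 moved by less than their counting interval, 76 moved further and 4 called ones changed direction. Gpihbp1 in arterial barcodes, 2.65 as reported, was 0 with a gate list of at least 2 UMIs and no other gate UMI (0 UMIs in 8 cisplatin and 2 UMIs in 28 saline barcodes), 0 without barcodes with at least 2 proximal tubule UMIs, and 0.676 after thinning. Lpl in capillary barcodes was 0.491 without barcodes with at least 2 proximal tubule UMIs. Fewer barcodes are left by each of these choices except thinning, and the cause was not tested otherwise.

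Over all endothelial barcodes, the ratios of Lpl, Gpihbp1, Cd36, Fabp4 and Fabp5, in this order, were 25.2, 2.02, 1.35, 0.611 and 0.502 with at least 2 of the 4 endothelial genes. They were 6.11, 0.787, 0.698, 0.282 and 0.245 without barcodes with a podocyte UMI, 4.71, 0.41, 0.517, 0.191 and 0.0939 as a mean over barcodes, and 3.84, 0.422, 0.612, 0.178 and 0.102 after thinning. At a minimum of 1000 UMIs Gpihbp1, Cd36, Fabp4 and Fabp5 moved to 2.6, 1.41, 0.667 and 0.666. At 10% mitochondrial UMIs Gpihbp1, Fabp4 and Fabp5 moved to 1.77, 0.526 and 0.439. Without barcodes with at least 2 proximal tubule UMIs Lpl, Cd36, Fabp4 and Fabp5 moved to 6.01, 0.519, 0.807 and 0.554. With equal weight to the 3 gates, chosen after seeing the data, Lpl and Gpihbp1 moved to 7.11 and 1.08. The direction of Lpl, Fabp4 and Fabp5 was kept under each of these. Free RNA subtraction gave no Lpl ratio in endothelial, capillary or arterial barcodes, since the saline library then held no Lpl: 48.4 UMIs were estimated in its endothelial barcodes and 36 were observed.

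Of 40 shares, 32 lay outside the thinned interval at full depth. The counts of lipid list genes stayed within 1.5 times under both alternatives. Depth limits Cd36 and Fabp5 in the glomerular and arterial gates, where 3 to 26 UMIs stand behind each level. One library per treatment means that the mice, the digestion and the sequencing of the 2 libraries cannot be told apart from cisplatin.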
